A study of Mus musculus with 24 samples.

Results

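Resident macrophages and the monocytes that enter the same tissue were compared here inside mouse colon tumours. The cells were F4/80hi MHCIIlow macrophages, hereafter MHCIIlow macrophages, and Ly6Chi MHCII− monocytes, both sorted by flow cytometry from tumours of Apc Min/+ mice, labelled APC/Min, which carry a germline Apc mutation on the C57BL/6J background and form intestinal adenomas. The compared set held 6 of the 24 RNA sequencing libraries of the study: 3 of MHCIIlow macrophages, numbered I, V and VII, and 3 of monocytes, numbered I, II and V. The number is called a donor in the labels, although each library came from cells pooled from 13 to 15 mice, and it is called a pool here. The tumours were accelerated by dextran sodium sulphate (DSS), which causes colitis: mice of both sexes, 6 to 8 weeks old, drank it over 1 week and were killed 4 weeks later, at 3 to 4 months of age. Of the remaining groups of the study, 3 are used below for comparison, with 3 libraries each: MHCIIhi macrophages of the same tumours, and MHCIIlow macrophages and monocytes of the colon lamina propria (LP), the connective tissue under the epithelium, of C57BL/6J mice, labelled C57/BL. The labels call that LP healthy, and by the methods the control mice had drunk DSS too. The methods give different DSS concentrations without stating clearly which mice had which, so the dose may differ between tumour and LP.

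Ly6Chi monocytes leave the bone marrow, enter the gut wall through the chemokine receptor Ccr2, and there lose Ly6C, gain MHC class II and turn on the genes of tissue macrophages. Macrophages take up dying cells and debris through scavenger and apoptotic-cell receptors, break them down in lysosomes, and mark them with the complement protein C1q. The comparison asks how far the transcripts of these tumour macrophages differ from those of the monocytes beside them. It is a comparison of populations, not of cells followed over time. The sequenced RNA comes from bulk sorted cells, and fewer cells of a type in a library cannot be told apart from less RNA per cell.

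Differences between the populations reached across the transcriptome. Levels are given in RPKM, counted reads over gene length and library size, and differences as log2 fold changes, macrophages minus monocytes, on the deposited log2 RPKM scale. A gene is called when the Benjamini-Hochberg adjusted p from limma is under 0.05. Of 12878 genes tested, 1745 were higher in MHCIIlow macrophages (13.6%) and 2370 were lower (18.4%), and the median over all genes was 0. The counts of every gene list below are to be read against these shares. A fold change of at least 4 was reached by 782 of the higher and 698 of the lower genes. The balance of directions depends on the scaling between libraries: 42.4% of the calls were higher as deposited, 32.0% with each library centred on its median, which moved the median of all genes by −0.19, and 68.8% with library sizes taken as summed reads, which moved it by 0.40. Counted reads were 18.6 to 33.3 M per macrophage library and 24.8 to 30.6 M per monocyte library, and the deposited values divide by a library size 1.31 to 1.51 times those reads for macrophages and 0.981 to 1.08 times for monocytes. Correlations of log2 RPKM across genes were 0.890 to 0.924 within the groups and 0.743 to 0.785 between them.

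**Figure D1:**
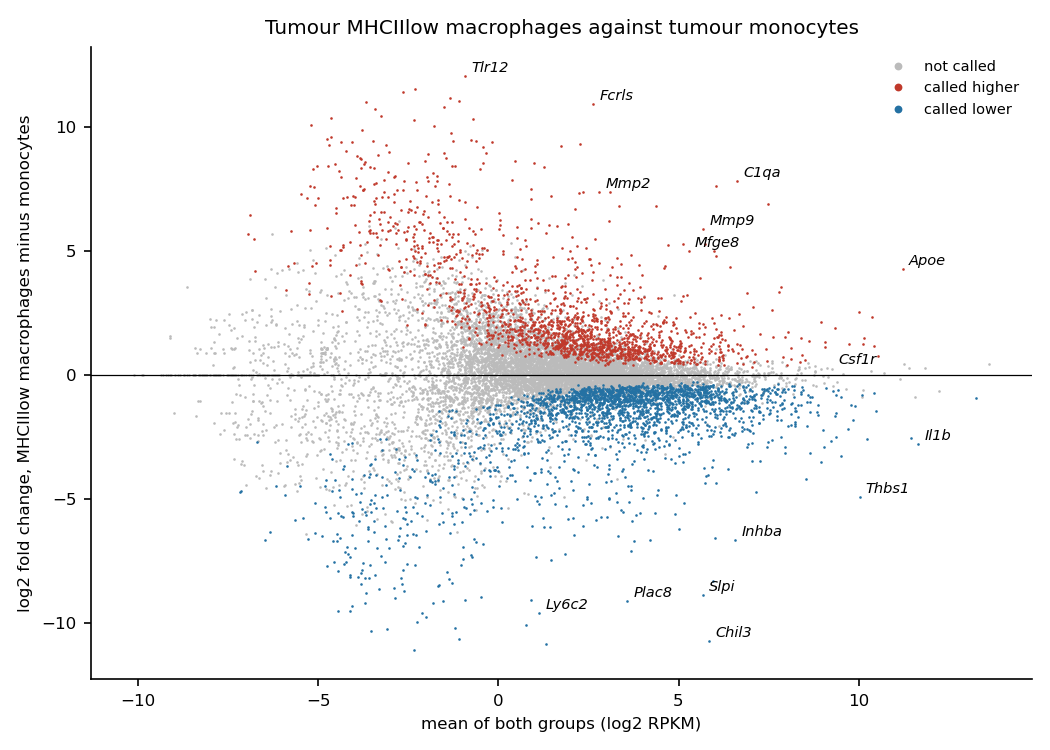
Each point is 1 of the 12878 genes tested, with the mean log2 RPKM of both groups on the horizontal axis and the log2 fold change, MHCIIlow macrophages minus monocytes, on the vertical axis. The 1745 genes called higher and the 2370 called lower are coloured, and among the labelled genes Apoe and C1qa lie high above 0, Chil3, Slpi and Thbs1 far below it, and Csf1r close to it.

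The sort used F4/80, Ly6C and MHC class II, so the genes of these proteins check the populations and are no finding. Adgre1, which encodes F4/80, stood at 248, 297 and 274 RPKM in macrophage pools I, V and VII and at 108, 65.1 and 93.3 in monocyte pools I, II and V. Ly6c2, which encodes Ly6C, stood at 0.0444, 0.0533 and 0.212 RPKM in macrophages and 72.1, 53.6 and 58.1 in monocytes. Both followed the gates with no overlap, and 14.1% of the 51-base stretches of Ly6c2 are shared with other genes. The MHC class II genes were higher in macrophages and unequal among their pools: H2-Ab1, the beta chain of I-A, stood at 2118, 1411 and 359 RPKM in macrophages and 182, 251 and 285 in monocytes. Pool VII thus held little more H2-Ab1 than the monocytes, and the call (log2 fold change 2.12, SE 0.60, limma adjusted p = 0.00963) was lost without macrophage pool I (adjusted p = 0.0658) and with only the 6 libraries compared in the fit (0.0698). Cd74, the invariant chain, followed the same order with 5203, 3762 and 1357 RPKM against 486, 608 and 711 in monocytes. Of 12 genes of MHC class II presentation, 7 were called higher and 0 lower, with a median log2 fold change of 1.99, or 1.73 with a gene at the counting floor set to its bound.

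Markers of other cells were present at unequal levels, some of them not low. The keratin Krt8 stood at 90.6, 2.11 and 9.63 RPKM in macrophages and 35.5, 120 and 74.9 in monocytes. The summed RPKM of 14 epithelial markers was 288, 16.4 and 34.7 in macrophage pools I, V and VII and 146, 389 and 265 in monocyte pools I, II and V. The sum of 11 B and plasma cell markers was 47.0, 59.7 and 403 in the macrophages and 18.8 to 63.7 in the monocytes, with Jchain at 0.918, 1.59 and 65.1 RPKM in macrophages. The sum of 14 neutrophil markers was 47.0 to 59.0 in macrophages and 182 to 339 in monocytes, with S100a8 at 6.26, 5.92 and 8.68 RPKM against 60.2, 30.9 and 24.5. Mmp8 stood at 11.8, 13.3 and 7.24 in macrophages and 154, 68.6 and 99.0 in monocytes, and Ly6g at 1.61, 0.00941 and 0.237 and 0.151, 0.986 and 1.32. Of the 12 neutrophil markers tested, all 12 had a log2 fold change below 0 and 5 were called lower. Among the macrophages pool I thus held the highest epithelial and pool VII the highest plasma cell sum, and results that change without either pool are named where they occur. The sums of 11 T and NK cell markers, 50.9 to 53.9 against 28.9 to 36.7, were mostly Cd4 and Il7r in macrophages and mostly Il7r in monocytes, with Cd3e, of the T cell receptor, at 0.373, 0.357 and 1.28 RPKM in macrophages. Above 1 RPKM were 2, 3 and 8 of these 11 markers in macrophage pools I, V and VII. The single markers were chosen after their values were seen, and the part of these cells in the results was not tested.

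Classical monocyte genes were lower in the macrophages. Of 24 classical monocyte genes, 22 were called lower and 0 higher, with a median log2 fold change of −4.87, against 18.4% lower among all genes. Chil3, a chitinase-like protein of inflammatory myeloid cells on chromosome 3 from 106147554 to 106167564 of GRCm38, stood at 3.0, 2.35 and 0.40 RPKM in macrophages and at 2212, 2146 and 2789 in monocytes, a log2 fold change of -10.71 (SE 1.27, limma adjusted p = 1.55e-06). The groups lay far apart, and 26.2% of the 51-base stretches of Chil3 are shared with other genes, so that a part of its reads may be split with them. Plac8, a small cysteine-rich protein of monocytes, stood at 3.39, 0.121 and 0.32 RPKM in macrophages and 419.8, 313 and 162 in monocytes. Every monocyte library lay above every macrophage library for both genes, which the naming rule for the largest falls required. Ccr2, which draws monocytes from the marrow into tissue, stood at 2.29, 3.36 and 3.3 RPKM in macrophages and 85.7, 70.0 and 121 in monocytes, a log2 fold change of -4.94 (SE 0.36, limma adjusted p = 2.79e-09). Vcan, the proteoglycan versican, was at 0.0735, 0.0354 and 0.000613 RPKM in macrophages, with no read in pool VII, and at 25.7, 13.1 and 19.3 in monocytes. F5, coagulation factor V, had 10, 0 and 0 reads in macrophages and 2380, 1306 and 2225 in monocytes.

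Secreted and matrix proteins were among the transcripts that were lower in macrophages. Thbs1, the matrix protein thrombospondin 1, stood at 382, 208 and 86.4 RPKM in macrophages and 6375, 5301 and 5454 in monocytes, a log2 fold change of -4.90 (SE 0.42, limma adjusted p = 1.99e-08). Fn1, fibronectin, stood at 42.1, 90.7 and 35.4 RPKM and 323, 365 and 336 RPKM. Slpi, an inhibitor of neutrophil elastase, stood at 2.97, 3.44 and 1.31 RPKM in macrophages and 1578, 1059 and 802 in monocytes, a log2 fold change of -8.86 (SE 0.49, limma adjusted p = 6.53e-11). None of these groups overlapped, and for Slpi the naming rule for the largest falls required this. Inhba, the activin A subunit, stood at 12.7, 13.4 and 5.06 RPKM in macrophages and 1218, 887 and 820.2 in monocytes. Hp, the haemoglobin-binding protein haptoglobin, stood at 9.03, 9.37 and 3.47 RPKM and 736, 611 and 559.6 RPKM. Among the genes with the largest falls at a mean of at least 10 RPKM were also Serpinb2, the plasminogen activator inhibitor 2, at 0.26, 0.199 and 0.00377 RPKM in macrophages and 106, 119 and 96.9 in monocytes, and Il12a, the p35 chain of interleukin 12, at 0.0716, 0.0859 and 0.00521 and 19.5, 17.3 and 11.8. Plcb1, a phospholipase C, and Has1, a hyaluronan synthase, belong to the same set: Plcb1 stood at 15.9, 13.9 and 15.1 RPKM in monocytes with at most 8 reads in a macrophage library, and Has1 at 13.3, 5.64 and 24 RPKM with reads in macrophage pool V only (0, 58 and 0 reads). B3gnt5, an enzyme of glycolipid synthesis, stood at 0.625, 0.49 and 0.00171 RPKM in macrophages and 43.6, 39.4 and 45.6 in monocytes. The microRNA gene Mir7678 had nearly the level of Slpi in monocytes, 1592, 991 and 872 RPKM, and its reads cannot be told apart from those of an overlapping gene. ENSMUSG00000084956.3, for which no symbol was found, stood at 0.782, 0.948 and 0.0121 RPKM in macrophages and 36.6, 37.6 and 36.4 in monocytes. Of the 24 monocyte genes only Klf2 and Ms4a6b were not called. Klf2, a transcription factor of quiescence, was at 18, 15 and 6.25 RPKM in macrophages and 6.13, 4.05 and 6.49 in monocytes and overlapped (limma adjusted p = 0.0851), and without macrophage pool VII it was called higher (adjusted p = 0.0253), as it was with library weights, with library sizes as summed reads and with the pool number as a block.

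**Figure D2:**
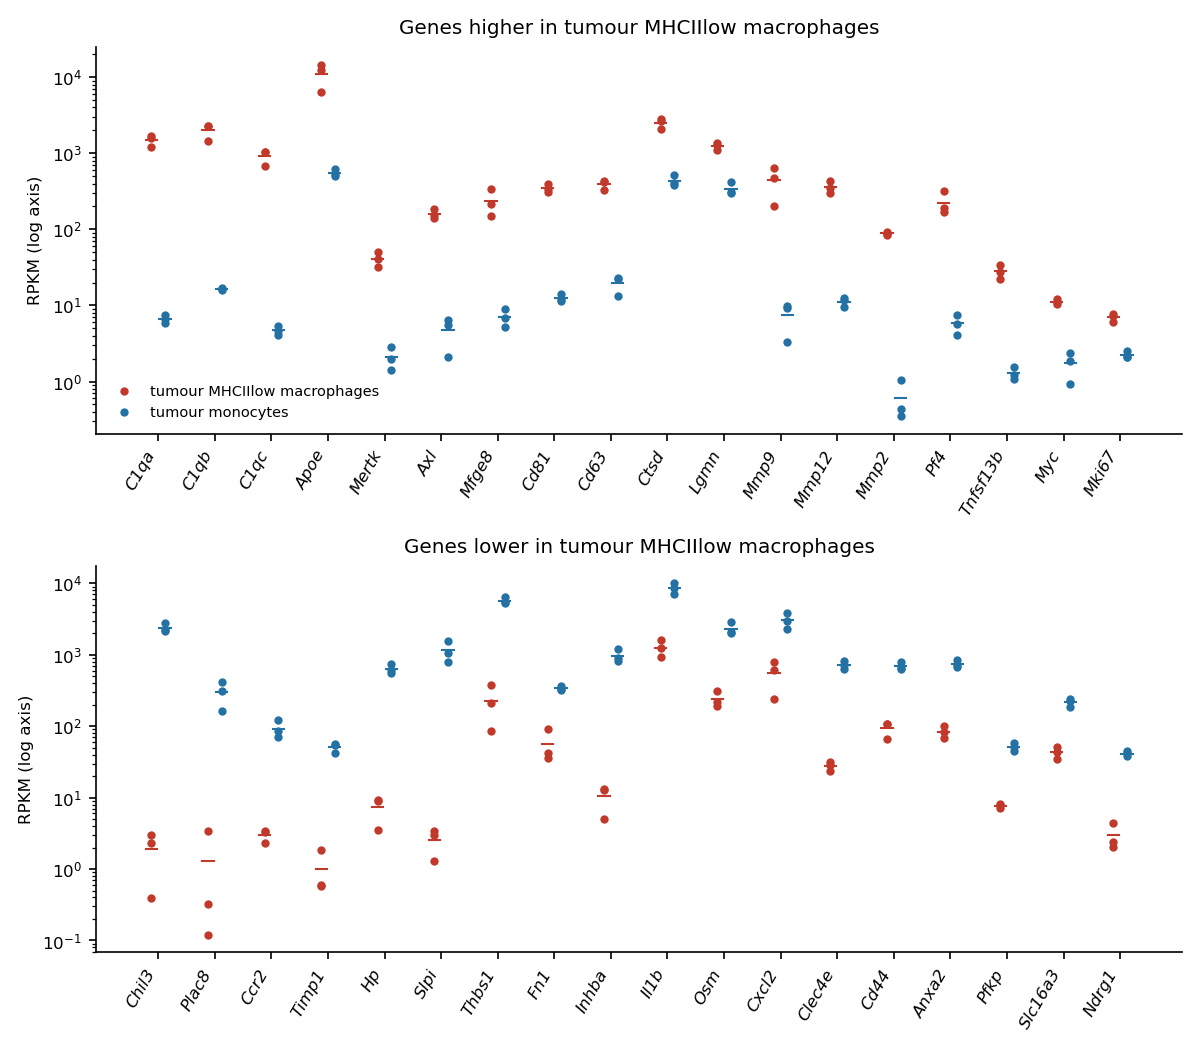
RPKM on a log axis for 18 genes higher (upper plot) and 18 genes lower (lower plot) in tumour MHCIIlow macrophages. Each point is 1 library, red for macrophages and blue for monocytes, and each bar is the mean of 3 libraries. The groups do not overlap for any of these genes, which for Chil3, Plac8 and Slpi the naming rule for the largest falls required.

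Macrophage identity genes were higher in MHCIIlow macrophages, with exceptions among the genes that monocytes carry too. Of 20 core macrophage genes 14 were called higher and 1 lower, with a median log2 fold change of 2.56, against 13.6% higher among all genes. Apoe, the lipid carrier apolipoprotein E, was among the most abundant transcripts, with 14632, 12333 and 6385 RPKM in macrophages and 623, 499 and 527 in monocytes, a log2 fold change of 4.26 (SE 0.35, limma adjusted p = 1.37e-08). Mertk, the receptor tyrosine kinase that recognises dying cells, stood at 50.4, 41.1 and 31.6 RPKM and 1.42, 2.0 and 2.81 RPKM. Cx3cr1, the fractalkine receptor of gut macrophages, stood at 164, 194 and 202 RPKM in macrophages and 7.1, 16.6 and 16.1 in monocytes, a log2 fold change of 3.91 (SE 0.62, limma adjusted p = 5.51e-05). Groups were separate for all of these genes. Mrc1, the mannose receptor, stood at 74.2, 85.3 and 53.5 RPKM and 1.35, 2.5 and 9.66 RPKM. The tetraspanin Cd81 stood at 389, 341 and 306 RPKM in macrophages and 11.5, 14.3 and 12.1 in monocytes. The tetraspanin Cd63, 10.8% of whose stretches are shared with other genes, stood at 428, 422 and 333 and 13.4, 22.4 and 22.9.

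Csf1r and Cd68, both textbook macrophage genes, were not called. Csf1r, the receptor for the growth factor of macrophages, stood at 696, 747 and 571 RPKM in macrophages and 535, 555 and 587 in monocytes, a log2 fold change of 0.26 (SE 0.14, limma adjusted p = 0.186), and 15.1% of its exon bases overlap exons on the opposite strand. Cd68, a lysosomal glycoprotein, stood at 556, 552 and 398 RPKM and 445, 362 and 365 RPKM (limma adjusted p = 0.161). Both were called higher with library sizes as summed reads or with quantile normalization, and Cd68 also with the pool number as a block. The levels of each overlapped between the groups. The member called lower was Aplp2, an amyloid precursor-like protein, at 54.7, 66.1 and 52.3 RPKM in macrophages and 146, 138 and 137 in monocytes.

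The C1q chains were higher in macrophages. C1qa, C1qb and C1qc encode the subunits of the molecule that starts the classical complement pathway, and C1qa lies on chromosome 4 from 136895917 to 136898803. C1qa stood at 1587, 1673 and 1215 RPKM in macrophages and 7.42, 6.68 and 5.95 in monocytes, a log2 fold change of 7.79 (SE 0.32, limma adjusted p = 1.27e-12). C1qb stood at 2259, 2283 and 1471 RPKM and 17, 16 and 16.5 RPKM, a log2 fold change of 6.90 (SE 0.26, limma adjusted p = 3.42e-13). C1qc stood at 1028, 1049 and 689.7 RPKM and 5.44, 4.66 and 4.06 RPKM. All macrophage pools lay over all monocyte pools, with pool VII lowest for each chain. Of 23 complement genes 8 were called higher and 3 lower, with a median of 0.48. C6, of the membrane attack complex, stood at 13.2, 5.75 and 4.33 RPKM in macrophages with 0, 4 and 0 reads in monocytes. The central component C3 went the other way, at 67.6, 49 and 42.8 RPKM in macrophages and 185, 155 and 176 in monocytes, a log2 fold change of -1.72 (SE 0.31, limma adjusted p = 0.000214). C4b, with 33.9% of its stretches shared with other genes, stood at 1.75, 0.403 and 0.905 RPKM in macrophages and 8.32, 4.28 and 3.72 in monocytes.

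Receptors for debris and dying cells were more often higher than lower. Of 22 scavenger and resident-macrophage receptors 11 were called higher and 3 lower, with a median log2 fold change of 2.07, or 1.96 with 6 genes at the counting floor set to their bounds. Folr2, a folate receptor of resident macrophages, stood at 25.6, 24.2 and 10.7 RPKM in macrophages and had no read in any monocyte library, at least 203-fold higher against a floor of 3 reads per library. The exons of Folr2 overlap exons on the opposite strand over 63.1% of their length. Marco, a scavenger receptor for bacteria and particles, stood at 14.1, 15.4 and 17.3 RPKM in macrophages, with 30, 0 and 0 reads in monocytes, and where a monocyte library holds no read, as here, the fitted size of the change depends on the prior count and is not given in the text. Timd4, a receptor for phosphatidylserine on dying cells, was low at 0.177, 0.657 and 0.185 RPKM and at least 6.88-fold higher than in monocytes, a call lost with log2(RPKM + 1). Clec4n, the fungal receptor dectin-2, stood at 958, 936 and 672 RPKM in macrophages and 293, 373 and 363 in monocytes. Lower in macrophages were Cd209a, a C-type lectin with no read in macrophages and 43, 96 and 30 reads in monocytes, at least 20.8-fold lower, and the inhibitory receptor Cd300lf at 12.1, 16.3 and 15.5 RPKM against 76.1, 44.8 and 49.5. Clec7a, the beta-glucan receptor dectin-1, stood at 209.7, 199 and 153 RPKM and 371, 406 and 494 RPKM, and its call (limma adjusted p = 0.0187) was lost without macrophage pool VII (0.0748) or monocyte pool V (0.0684), with library sizes as summed reads (0.114) and with quantile normalization (0.162).

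For apoptotic-cell clearance, 8 of 20 genes were called higher and 3 lower, with a median of 0.37. These were 40% and 15%, against 13.6% and 18.4% over all genes. Axl, a kinase receptor related to Mertk, stood at 139, 187 and 157 RPKM in macrophages and 2.11, 5.57 and 6.51 in monocytes, a log2 fold change of 5.23 (SE 0.38, limma adjusted p = 2.91e-09). Gas6, the ligand of Axl and Mertk, stood at 57, 46.2 and 48.2 RPKM and 3.4, 2.35 and 0.867 RPKM. Mfge8, a bridge between phosphatidylserine and integrins, stood at 215, 337 and 148 RPKM in macrophages and 5.21, 8.99 and 6.87 in monocytes, a log2 fold change of 5.01 (SE 0.51, limma adjusted p = 2.33e-07). The receptors Mertk and Axl and the bridges Gas6 and Mfge8 were thus all called higher, with no overlap. The lower members were Lrp1, a large endocytic receptor, at 23.7, 27 and 17.8 RPKM against 49, 50.4 and 46.1, and the lipid transporters Abca7, at 5.24, 6.49 and 5.36 RPKM against 18.9, 21.2 and 17.1, and Abca1.

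Lysosomal proteases and hydrolases were more often higher than lower in macrophages. Of 16 cathepsins and their relatives and inhibitors 10 were called higher and 0 lower, with a median log2 fold change of 1.15, and 2 were called lower with libraries centred on their median. Ctsd, an aspartyl protease, stood at 2072, 2795 and 2681 RPKM in macrophages and 519, 386 and 401 in monocytes, a log2 fold change of 2.53 (SE 0.17, limma adjusted p = 9.04e-10). A readthrough gene shares 32.3% of its stretches. Lgmn, the asparaginyl endopeptidase legumain, stood at 1289, 1357 and 1091 RPKM and 301, 307 and 415 RPKM, a log2 fold change of 1.88 (SE 0.15, limma adjusted p = 1.22e-08). Ctsz stood at 2061, 2330.0 and 1835 RPKM in macrophages and 1020.1, 882 and 846 in monocytes. Ctsf stood at 33.5, 35.3 and 26.4 RPKM and 0.984, 1.19 and 0.669 RPKM. The groups were separate for each of these proteases. Ctss, which processes the invariant chain, was highest of the cathepsins and not called, at 3044, 3029 and 2543 RPKM in macrophages and 2297, 1920.0 and 2160.3 in monocytes (log2 fold change 0.43, limma adjusted p = 0.0959), and it was called higher with library sizes as summed reads, library weights, quantile normalization or limma voom on the recovered reads.

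Of 45 lysosomal hydrolase and membrane genes 25 were called higher and 3 lower, with a median of 0.85. Atp6v0d2, a subunit of the proton pump of macrophages and osteoclasts, stood at 6.0, 5.76 and 4.44 RPKM in macrophages and 0.187, 0.107 and 0.00326 in monocytes. The lower members were Lamp2, a lysosomal membrane protein, at 74.3, 66.8 and 75.5 RPKM against 135, 99.4 and 119, Tfe3, a transcription factor of lysosomal genes, at 10.2, 13.4 and 12.6 RPKM against 19.1, 16.1 and 19.8, and the pump subunit Atp6v1a. The call of Lamp2 was lost with quantile normalization, and both that and the call of Tfe3 were lost with library sizes as summed reads, under which 32 members were called higher and 0 lower. Psap, the precursor of the saposins, stood at 2816, 3378 and 2720.1 RPKM and 2403, 2275 and 2613 RPKM and was not called (limma adjusted p = 0.214), although it was with library sizes as summed reads, quantile normalization or voom.

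Promoters of this group often held CACGTG, the core of the element that Tfeb, Tfe3 and Mitf bind in lysosomal genes. RefSeq promoter sequences on GRCm38.p6 were searched over the 250 bases before the start on both strands, and CACGTG overlaps ACGTGC, used below, in 2.26% of the table's entries. CACGTG was found in 14 of the 46 cathepsin and lysosomal members tested that had a sequence (30.4%), in 10 of 26 called higher and in 1 of 3 called lower, against 10.0% of the 9067 tested genes with a sequence and 6.86% of all 27025 genes in the table. A match is a description of the letters and not a site or a cause. The motif, in capitals with up to 30 bases on each side and 5′ to 3′ on the strand of the gene, is shown for the 4 called members of highest level whose match lies in no annotated exon, chosen after their values were seen. Lgmn lies at chr12:102439106-102439171, Atp6v1a at chr16:44139355-44139420, Glb1 at chr9:114401000-114401065 and Gaa at chr11:119267793-119267858.
Lgmn: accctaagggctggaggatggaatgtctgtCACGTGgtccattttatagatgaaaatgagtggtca
Atp6v1a: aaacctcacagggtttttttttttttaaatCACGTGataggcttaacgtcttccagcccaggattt
Glb1: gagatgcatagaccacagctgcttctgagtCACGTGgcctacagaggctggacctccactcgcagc
Gaa: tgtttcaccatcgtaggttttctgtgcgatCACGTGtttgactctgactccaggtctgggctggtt
Glb1, the lysosomal beta-galactosidase, stood at 37.8, 42.1 and 39.7 RPKM in macrophages and 11, 11.4 and 14.2 in monocytes. Gaa, the acid alpha-glucosidase, stood at 32.2, 37.4 and 27.4 RPKM and 12.2, 9.0 and 9.14 RPKM. Atp6v1a carries the same letters and went the other way, at 57.2, 57.4 and 51.3 RPKM in macrophages and 96.4, 73.1 and 82.1 in monocytes.

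Lipid handling genes were more often higher than lower. Of 28 members 12 were called higher (42.9%) and 4 lower (14.3%), against 13.6% and 18.4% over all genes, with a median of 0.90. Trem2, a lipid receptor of macrophages, stood at 28.5, 32.2 and 19.6 RPKM in macrophages and 5.55, 4.72 and 4.97 in monocytes, a log2 fold change of 2.37 (SE 0.50, limma adjusted p = 0.000986). Gpnmb, a transmembrane glycoprotein of lipid-laden macrophages, stood at 59.2, 57.3 and 36 RPKM and 3.16, 3.11 and 1.11 RPKM. Ch25h, the cholesterol 25-hydroxylase, stood at 5.89, 6.31 and 11.3 RPKM in macrophages with 5, 0 and 0 reads in monocytes. The lipoprotein receptor Olr1 went the other way. Olr1, which takes up oxidised lipoprotein, stood at 1.94, 2.87 and 0.883 RPKM in macrophages and 110.3, 104 and 87.5 in monocytes, a log2 fold change of -5.88 (SE 0.57, limma adjusted p = 1.09e-07).

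Iron genes moved in both directions. Slc40a1, the iron exporter ferroportin, stood at 37.8, 34.8 and 28.8 RPKM in macrophages and 0.12, 0.221 and 0.439 in monocytes, a log2 fold change of 7.21 (SE 0.38, limma adjusted p = 3.15e-11). Cp, the ferroxidase ceruloplasmin that works beside it, stood at 6.95, 8.07 and 10.2 RPKM in macrophages with 0, 0 and 8 reads in monocytes. Lcn2, which binds bacterial iron carriers, stood at 0.606, 0.387 and 0.603 RPKM and 25.9, 13 and 9.63 RPKM, and it is also a neutrophil marker, a group whose sum was higher in monocytes. Of 19 iron and haem genes 6 were called higher (31.6%) and 5 lower (26.3%), against 13.6% and 18.4% over all genes. Their median was 0.84. Fth1, the ferritin heavy chain, stood at 8741, 7921 and 5366 RPKM in macrophages and 17538, 14543 and 9685 in monocytes, and its call (limma adjusted p = 0.042) was lost without macrophage pool V (0.0671) or VII (0.157) or monocyte pool I (0.16) or II (0.0986), with the pool number as a block, with library sizes as summed reads (0.16), with quantile normalization (0.0869) and with fewer libraries in the fit.

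**Figure D3:**
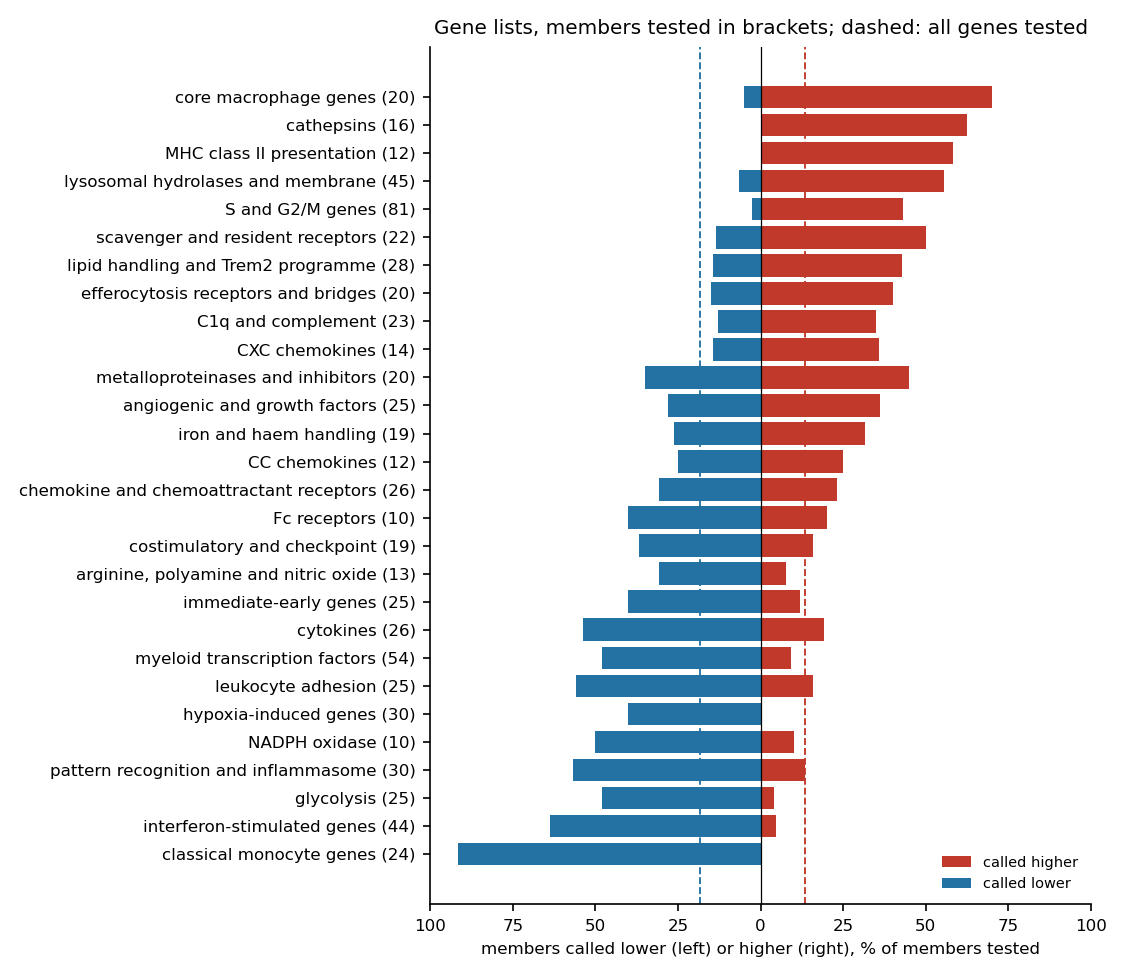
Share of the tested members of 28 gene lists called higher (right, red) or lower (left, blue) in tumour MHCIIlow macrophages, with the number of members tested in brackets. Dashed lines mark the shares over all genes, 13.6% higher and 18.4% lower, and core macrophage genes lead on the right while classical monocyte genes reach 91.7% on the left.

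Transcription factors were more often lower than higher. Of 54 myeloid factors 26 were called lower and 5 higher, with a median of −0.81, or 25 and 12 with library sizes as summed reads and 24 and 8 with quantile normalization. The higher ones were Maf, Irf8, Bhlhe41, Myc and Atf3. Bhlhe41, a transcriptional repressor with 19.0% of its exon bases under exons of the opposite strand, stood at 9.68, 11.1 and 17.4 RPKM in macrophages and 0.0547, 0.0297 and 0.0384 in monocytes, a log2 fold change of 8.28 (SE 0.88, limma adjusted p = 3.49e-07). Maf stood at 8.78, 6.32 and 10.8 RPKM and 1.26, 0.937 and 0.896 RPKM, a log2 fold change of 3.05 (SE 0.41, limma adjusted p = 6.78e-06). Myc stood at 12.1, 10.9 and 10.5 RPKM in macrophages and 0.931, 2.37 and 1.89 in monocytes, a log2 fold change of 2.79 (SE 0.44, limma adjusted p = 4.52e-05). Maf and Myc were thus both called higher. Cebpe and Nfe2, factors of granulocyte and megakaryocyte precursors, had the lowest log2 fold changes: Nfe2 stood at 1.2, 0.355 and 0.135 RPKM against 3.6, 4.99 and 4.24, a call lost without macrophage pool VII (limma adjusted p = 0.0871) with the pool number as a block and with only the tumour libraries in the fit, and Cebpe at 0.00716, 0.229 and 0.123 against 2.75, 1.89 and 1.1, a call lost without macrophage pool I (0.0721). Id2, an inhibitor of helix-loop-helix factors, stood at 230.5, 183 and 165 RPKM in macrophages and 492, 377 and 399 in monocytes.

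Of 25 immediate-early genes, which respond within minutes to stimulation and to tissue digestion, 10 were called lower and 3 higher, with a median of −0.86, or 8 and 5 with library sizes as summed reads. Fosl1, an AP-1 subunit whose exons lie under exons of the opposite strand over 57.2% of their length, stood at 4.31, 2.74 and 1.47 RPKM in macrophages and 68, 55.4 and 49.7 in monocytes, a log2 fold change of -4.47 (SE 0.55, limma adjusted p = 2.52e-06). Ier3 stood at 425, 229 and 139.9 RPKM and 1609.7, 1870.3 and 1154 RPKM, and Nr4a1, an orphan nuclear receptor, at 165, 101 and 79.6 and 244, 303 and 420.3. The phosphatase Dusp1 stood at 764, 578 and 454 RPKM in macrophages and 1296, 1148 and 1629 in monocytes. Atf3 went the other way, at 474, 387 and 369 RPKM and 163, 148 and 284 RPKM. The part of the digestion was not tested.

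Cytokines were more often lower than higher in macrophages. Of 26 cytokines 14 were called lower in macrophages and 5 higher, with a median of −1.22. Il1b was the most abundant, at 1607, 1223 and 939 RPKM in macrophages and 10008, 8491 and 7075 in monocytes, a log2 fold change of -2.78 (SE 0.28, limma adjusted p = 2.12e-07). Osm, oncostatin M, stood at 307, 193 and 219 RPKM and 2855, 2009 and 2057 RPKM, a log2 fold change of -3.28 (SE 0.23, limma adjusted p = 1.64e-09). Il23a, the p19 chain of interleukin 23, stood at 4.3, 1.82 and 1.37 RPKM in macrophages and 112, 157 and 66.5 in monocytes. The macrophages thus still held abundant Il1b in every pool. Tnf was not called, at 116, 105 and 75.8 RPKM and 120.2, 102 and 91.8 RPKM (log2 fold change -0.10, SE 0.30, limma adjusted p = 0.851). Il10, which restrains inflammation in the gut, stood at 34.7, 18.5 and 15.6 RPKM in macrophages and 37.8, 36.4 and 38.1 in monocytes, with every macrophage pool below every monocyte pool but no call (limma adjusted p = 0.134), although it was called without macrophage pool I (0.0474) and with library weights (0.0466). Tnfsf13b, the B cell factor BAFF, had the largest rise of the list, at 22.3, 27.5 and 34.3 RPKM against 1.09, 1.23 and 1.55, a log2 fold change of 4.44 (SE 0.39, limma adjusted p = 2.76e-08). Tgfb3 stood at 14.5, 8.25 and 6.67 RPKM and 0.545, 0.40 and 0.413 RPKM, and its call (limma adjusted p = 0.0382) was lost without any 1 of the 6 libraries, with adjusted p values from 0.0667 without macrophage pool VII to 0.102 without macrophage pool I, and with the pool number as a block.

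Chemokines divided between the populations. Of 12 CC chemokines 3 were called higher and 3 lower, with a median of −0.08 that turned positive with library sizes as summed reads. These were 25% each way, against 13.6% higher and 18.4% lower over all genes. Ccl8 stood at 24, 16.4 and 27.1 RPKM in macrophages and had no read in monocytes, at least 107-fold higher. Ccl12, a monocyte attractant, stood at 22.6, 19.9 and 34.6 RPKM and 1.88, 0.0165 and 0.0884 RPKM, with no read in monocyte pool II (limma adjusted p = 0.000123). Ccl8 and Ccl12 were both called higher in the macrophages. Ccl24, an eosinophil attractant, stood at 9.76, 13.1 and 3.61 RPKM in macrophages and 40.8, 119.6 and 100.2 in monocytes, and Ccl9 at 117, 148 and 96.9 and 308, 232 and 236. Ccl6 stood at 143, 154 and 103 RPKM and 311, 249.8 and 286 RPKM, and its call (limma adjusted p = 0.0138) was lost without macrophage pool VII (0.0699) or monocyte pool I (0.0503), with library sizes as summed reads (0.0762) and with quantile normalization (0.115). Ccl4, an attractant of T cells, stood at 312, 183 and 227 RPKM in macrophages and 225, 122 and 140.5 in monocytes and overlapped.

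Of 14 CXC chemokines 5 were called higher and 2 lower, with a median of 0 that turned negative with libraries centred on their median. These were 35.7% higher, against 13.6% over all genes, and 14.3% lower, near the 18.4% of all genes. The lower ones were the neutrophil attractants Cxcl2, at 793, 609 and 243 RPKM in macrophages and 3855, 2976 and 2272 in monocytes, and Cxcl3, at 211, 169.9 and 68 and 1406, 1283 and 944, a log2 fold change of -3.15 (SE 0.48, limma adjusted p = 3.61e-05). Pf4, platelet factor 4, stood at 317, 192 and 167 RPKM in macrophages and 4.11, 5.75 and 7.59 in monocytes, a log2 fold change of 5.26 (SE 0.43, limma adjusted p = 1.31e-08). The related Ppbp, at 166, 141 and 53.7 RPKM against 4.76, 6.49 and 5.05, made up most of the sum of the erythroid and platelet markers, which was 56.0 to 177 in macrophages and 7.64 to 10.5 in monocytes. The part of platelets in Pf4 and Ppbp was not tested. Cxcl13, the B cell attractant, stood at 0.329, 3.21 and 1.23 RPKM in macrophages, at least 17.3-fold higher than in monocytes, which had 2, 2 and 0 reads. Cxcl10 stood at 63.1, 31.8 and 25.8 RPKM and 109, 48.5 and 49.6 RPKM and was not called.

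Among 26 chemoattractant receptors 6 were called higher (23.1%) and 8 lower (30.8%), against 13.6% and 18.4% over all genes. Their median was −0.71, and with library sizes as summed reads 6 were higher and 6 lower. The largest called fall was in Ltb4r1, a receptor for leukotriene B4, at 1.19, 2.48 and 2.16 RPKM in macrophages and 218, 158 and 190.4 in monocytes, a log2 fold change of -6.66 (SE 0.37, limma adjusted p = 6.07e-11). Ccr1 stood at 201, 157 and 170.3 RPKM and 685, 468 and 583 RPKM. Ccrl2, which presents chemerin, stood at 369.9, 209.7 and 146 RPKM in macrophages and 619, 573 and 387 in monocytes, and this call and that of Ccr3 were lost with only the 6 libraries compared in the fit (limma adjusted p = 0.0691 for Ccrl2 and 0.0994 for Ccr3). Cxcr3 and Ccr3, receptors better known from T cells and eosinophils, were higher at low levels: Cxcr3 stood at 1.7, 7.39 and 5.5 RPKM in macrophages with 18, 0 and 0 reads in monocytes, and Ccr3 at 0.819, 0.345 and 1.04 RPKM with 0, 0 and 32 reads and with overlap.

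Interferon-stimulated genes were more often lower than higher in macrophages. Of 44 members 28 were called lower and 2 higher, with a median log2 fold change of −1.33. Oas3, a sensor of double-stranded RNA, stood at 1.73, 0.96 and 0.125 RPKM in macrophages and 27, 22.1 and 19.5 in monocytes, a log2 fold change of -5.26 (SE 0.69, limma adjusted p = 5.37e-06). Isg20, an exonuclease of viral RNA, stood at 0.809, 0.218 and 0.631 RPKM and 7.62, 4.87 and 6.54 RPKM. Gbp2, a guanylate-binding protein, stood at 30.9, 14.9 and 20.8 RPKM and 151, 42.5 and 96.6 RPKM, a call lost without monocyte pool I (limma adjusted p = 0.0563). The members called higher were Bst2, a tether of enveloped viruses, at 57.1, 56.3 and 60.8 RPKM in macrophages and 21.6, 16.9 and 10.9 in monocytes, and Iigp1, a GTPase, at 5.16, 1.12 and 1.37 RPKM and 0.90, 0.00284 and 0.151 RPKM. The call of Iigp1 was lost without macrophage pool I (0.0998) or monocyte pool II (0.208) and with fewer libraries in the fit.

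The core of the interferon-stimulated response element, GAAA, any 2 bases and GAAA, was found in the 250 bases before the start of 17 of 34 tested members with a sequence (50%), against 3.43% of tested genes and 3.46% of all genes in the table. It was held by 8 of 21 members called lower and by Bst2, called higher, so the letters occur in promoters of both directions. The 4 called members of highest level whose match lies in no annotated exon are shown, with the match in capitals, chosen after their values were seen. Bst2 lies at chr8:71537557-71537626, Oas1a at chr5:120907526-120907569, Trim30a at chr7:104465194-104465259 and Oas3 at chr5:120777695-120777764, and the match of Trim30a is on the opposite strand.
Bst2: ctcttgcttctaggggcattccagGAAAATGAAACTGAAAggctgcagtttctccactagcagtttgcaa
Oas1a: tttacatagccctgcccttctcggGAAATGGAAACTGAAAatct
Trim30a: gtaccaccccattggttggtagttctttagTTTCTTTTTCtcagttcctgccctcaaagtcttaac
Oas3: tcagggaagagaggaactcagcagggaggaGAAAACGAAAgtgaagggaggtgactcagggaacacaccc
Oas1a, a relative of Oas3 with close paralogs that may share its reads, stood at 20.6, 12.2 and 14.6 RPKM in macrophages and 56.2, 41.2 and 51.3 in monocytes. Trim30a stood at 21.7, 13.3 and 14.9 RPKM and 53.7, 46.2 and 48.3 RPKM.

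Sensors of microbes were more often lower than higher. Of 30 pattern recognition and inflammasome genes 17 were called lower and 4 higher, with a median of −0.86. Cd14, the co-receptor for lipopolysaccharide, stood at 1587, 1273 and 772 RPKM in macrophages and 7952, 5992 and 6617 in monocytes, a log2 fold change of -2.55 (SE 0.27, limma adjusted p = 2.76e-07). Clec4e, the receptor Mincle, stood at 28.6, 31.4 and 23.5 RPKM and 828, 711 and 640.4 RPKM, a log2 fold change of -4.71 (SE 0.22, limma adjusted p = 4.51e-12). Tlr12, a sensor of profilin, had the largest fitted rise of all genes that met the naming rule, with 43.9, 37.3 and 25.4 RPKM in macrophages and 0, 6 and 0 reads in monocytes. Tlr3, which senses double-stranded RNA, stood at 2.84, 3.62 and 3.96 RPKM in macrophages and 0.131, 0.0342 and 0.143 in monocytes, a call lost with only the tumour libraries in the fit (limma adjusted p = 0.0588).

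Glycolysis and hypoxia genes were more often lower than higher. Of 25 glycolysis genes 12 were called lower and 1 higher, with a median of −0.57, and of 30 hypoxia-induced genes, 6 of which are in the first list too, 12 were called lower and 0 higher, with a median of −0.90. With library sizes as summed reads these were 10 and 1, and 10 and 3. Pfkp, the platelet-type phosphofructokinase, stood at 8.01, 8.05 and 7.13 RPKM in macrophages and 44.3, 51 and 58.5 in monocytes, a log2 fold change of -2.72 (SE 0.17, limma adjusted p = 3.87e-10). Slc16a3, which exports lactate, stood at 43.6, 51.4 and 34.9 RPKM and 221, 183 and 240.3 RPKM, a log2 fold change of -2.32 (SE 0.18, limma adjusted p = 7.1e-09). Pkm, the pyruvate kinase of these cells, with 25.4% of its stretches shared, stood at 583, 719 and 581 RPKM in macrophages and 1433, 1328 and 1673 in monocytes. These falls were larger than the spread between pools. Ldha, lactate dehydrogenase, stood at 439, 487 and 431 RPKM and 619.9, 585 and 775 RPKM, with a call (limma adjusted p = 0.0392) that was lost without macrophage pool I (0.09), V (0.0555) or VII (0.102) or monocyte pool I (0.0626) or V (0.162), and with the pool number as a block. With quantile normalization its log2 fold change was −0.01 (adjusted p = 0.996), with summed reads −0.13 (0.624), and the call was also lost with fewer libraries in the fit. Aldoc, an aldolase, was the member called higher, at 9.94, 7.57 and 7.11 RPKM in macrophages and 0.923, 2.04 and 1.35 in monocytes.

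Among hypoxia-induced genes Ndrg1 fell most, from 41.5, 38 and 44.3 RPKM in monocytes to 4.42, 2.4 and 2.07 in macrophages, a log2 fold change of -3.88 (SE 0.39, limma adjusted p = 1.55e-07). Anxa2, annexin A2, stood at 83.1, 100.1 and 69.1 RPKM in macrophages and 726, 667 and 838 in monocytes. Vegfa, the vascular growth factor, stood at 10.3, 4.15 and 4.57 RPKM and 16.5, 17 and 12.5 RPKM, with every macrophage pool below every monocyte pool and no call (limma adjusted p = 0.16), although it was called lower with the pool number as a block, with library weights, with log2(RPKM + 1), with only the libraries compared in the fit and with voom. The letters ACGTGC, which hold the core of the hypoxia response element, were found before the start of 17 of 45 tested members of both lists with a sequence (37.8%), against 7.95% of tested genes and 5.63% of all genes in the table, and in 7 of 17 members called lower. The 4 called members of highest level with a match outside annotated exons are shown, chosen after their values were seen: Ldha at chr7:46845739-46845803, Pgk1 at chrX:106186938-106187003, Ddit4 at chr10:59951922-59951987 and Mxi1 at chr19:53329317-53329382, with the capitals of Ldha and Pgk1 on the opposite strand.
Ldha: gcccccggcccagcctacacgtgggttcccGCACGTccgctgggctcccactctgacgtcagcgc
Pgk1: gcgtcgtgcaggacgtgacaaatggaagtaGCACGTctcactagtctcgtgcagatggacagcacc
Ddit4: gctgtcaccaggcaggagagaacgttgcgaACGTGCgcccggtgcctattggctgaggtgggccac
Mxi1: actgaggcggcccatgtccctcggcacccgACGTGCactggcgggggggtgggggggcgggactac
Pgk1, phosphoglycerate kinase, stood at 50.7, 61.8 and 47.8 RPKM in macrophages and 93.1, 98.3 and 109.6 in monocytes. Ddit4, an inhibitor of mTORC1, stood at 33.4, 26.4 and 22.8 RPKM and 52.6, 65.9 and 74.8 RPKM, and Mxi1, an antagonist of Myc, at 18.8, 17.9 and 15.3 and 42.2, 42.5 and 37.

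Cell cycle genes were more often higher than lower in MHCIIlow macrophages. Of 81 S and G2/M phase genes tested, out of 97 listed, 35 were called higher and 2 lower, with a median log2 fold change of 2.20, and 25 were called higher with the pool number as a block. Mki67, the Ki-67 antigen, stood at 6.06, 7.31 and 7.66 RPKM in macrophages and 2.07, 2.56 and 2.13 in monocytes, a log2 fold change of 1.64 (SE 0.24, limma adjusted p = 1.85e-05). Cdc25c, the phosphatase that opens mitosis, stood at 1.09, 1.91 and 4.46 RPKM in macrophages and had no read in monocytes, at least 45-fold higher. Pimreg, a mitotic regulator, stood at 0.45, 2.45 and 2.77 RPKM and had no read in monocytes either, at least 44.6-fold higher, with a limma adjusted p of 0.0107 that was 0.0966 with the pool number as a block. Cdc25c and Pimreg were highest in pool VII. The 2 called lower were Slbp, the histone mRNA binding protein, at 5.89, 7.02 and 8.45 RPKM against 12.1, 13.7 and 15.3, and Lbr, a lamin receptor, at 7.73, 9.12 and 11.6 against 23.8, 20.9 and 20.1. Tubb4b, the most abundant member in macrophages, was not called, at 41.3, 36.5 and 33.6 RPKM against 25.6, 23.8 and 25.6, although it was under 9 of the alternatives tried, the pool number as a block among them, and 37.4% of its stretches are shared with other genes. With macrophage pool VII left out the median was 1.85, with libraries centred on their median 5 were called lower, and with only genes of a mean of at least 5 RPKM it was 0.66.

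Matrix proteases moved in both directions. Of 20 metalloproteinases and inhibitors 9 were called higher (45%) and 7 lower (35%), against 13.6% and 18.4% over all genes. Their median of −0.03 turned positive with library sizes as summed reads. Without macrophage pool I or monocyte pool I or V, 4 were called lower. Mmp2, the gelatinase A, stood at 88.1, 85.5 and 93.7 RPKM in macrophages and 1.06, 0.352 and 0.435 in monocytes, a log2 fold change of 7.35 (SE 0.49, limma adjusted p = 6.52e-10). Mmp9, the gelatinase B, stood at 645, 468 and 205 RPKM and 3.34, 9.32 and 9.71 RPKM, a log2 fold change of 5.88 (SE 0.52, limma adjusted p = 3.57e-08). Mmp12, the macrophage elastase, stood at 296, 437 and 346 RPKM in macrophages and 11.6, 9.47 and 12.5 in monocytes, a log2 fold change of 5.00 (SE 0.54, limma adjusted p = 4.86e-07). Gelatinases and elastase were thus abundant in macrophages and scarce in monocytes, with no overlap, and Mmp2 varied least among the macrophage pools. Adamdec1, a decysin of gut macrophages, stood at 246, 123 and 57.9 RPKM in macrophages and 0.196, 0.0912 and 0.386 in monocytes. Timp1, an inhibitor of these enzymes, went the other way at 0.603, 1.86 and 0.573 RPKM and 55.4, 41.4 and 54.5 RPKM, a log2 fold change of -5.86 (SE 1.30, limma adjusted p = 0.00154). Adam8, a membrane protease, stood at 124, 153 and 95.4 RPKM and 521, 400.5 and 388 RPKM. Mmp25 was low in both groups, at 0.337, 0.00263 and 0.236 RPKM in macrophages and 0.685, 0.988 and 1.57 in monocytes, a call lost with only the 6 libraries compared (limma adjusted p = 0.169) or only the tumour libraries (0.066) in the fit.

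Of 25 angiogenic and growth factors 9 were called higher (36%) and 7 lower (28%), against 13.6% and 18.4% over all genes. Their median was 0.88. Igf1, the insulin-like growth factor, stood at 13.7, 14.6 and 14.6 RPKM in macrophages and 0.0682, 0.0938 and 0.00869 in monocytes, a log2 fold change of 8.55 (SE 0.85, limma adjusted p = 1.6e-07). Pdgfc, a platelet-derived growth factor, stood at 4.87, 3.1 and 3.08 RPKM and had no read in monocytes, at least 175-fold higher. Plaur, the urokinase receptor, stood at 406, 306 and 179 RPKM in macrophages and 1741, 1403 and 1582 in monocytes. Igf1 and Pdgfc were thus higher in macrophages, and Plaur, Inhba and Thbs1 higher in monocytes. Ereg, a ligand of the epidermal growth factor receptor, was low and overlapping at 1.11, 0.00767 and 0.00214 RPKM and 0.389, 1.88 and 1.59 RPKM, and its call (limma adjusted p = 0.0274) was lost without macrophage pool V (0.113) or VII (0.172) or monocyte pool II (0.0844) or V (0.0776), with the pool number as a block, with log2(RPKM + 1) (0.299), with voom (0.0919) and with fewer libraries in the fit.

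Adhesion genes were mostly lower, 14 of 25 against 4 higher, with a median of −0.93. Cd44, the hyaluronan receptor, stood at 108, 106 and 66.1 RPKM in macrophages and 786, 650.4 and 635 in monocytes, a log2 fold change of -2.92 (SE 0.20, limma adjusted p = 1.02e-09). Itgb2, the beta chain of the leukocyte integrins, stood at 189, 244 and 150.3 RPKM and 491, 479 and 463 RPKM. Itga1, a collagen receptor, stood at 0.241, 0.00148 and 0.0313 RPKM in macrophages and 6.42, 6.91 and 9.39 in monocytes. The integrin chains Itga6 and Itga9 were higher instead: Itga6 stood at 3.82, 5.84 and 8.4 RPKM against 0.278, 1.17 and 0.42, and Itga9 at 12.5, 9.83 and 9.32 against 0.231, 0.604 and 0.558, a call lost without macrophage pool I (limma adjusted p = 0.0528) or monocyte pool I (0.074). Without either of these pools 2 members were called higher.

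Effector genes of phagocytes gave mixed counts. Of 10 Fc receptors 2 were called higher and 4 lower, with a median of −0.24 that turned positive with library sizes as summed reads, under which, as with quantile normalization, 3 were higher and 2 lower. Fcrls, an Fc receptor-like protein, stood at 201, 298 and 344 RPKM in macrophages and 0.0895, 0.0341 and 0.93 in monocytes, a log2 fold change of 10.92 (SE 1.45, limma adjusted p = 6.49e-06). Fcrl1 stood at 3.77, 3.07 and 1.92 RPKM and 0.349, 0.142 and 1.25 RPKM, a call lost with only the 6 libraries compared in the fit (limma adjusted p = 0.0558), and the paired receptor Pirb, with 33.6% of its stretches shared, at 62.5, 71.2 and 49.6 RPKM and 148, 116 and 124 RPKM. Fcgr3, an activating receptor for antibody, stood at 655, 627 and 403 RPKM in macrophages and 928, 813 and 798 in monocytes, and its call (limma adjusted p = 0.0158) was lost without macrophage pool VII (0.118), without which 2 Fc receptors were called lower, or monocyte pool I (0.0651), with summed reads (0.281), with quantile normalization (0.588) and with fewer libraries in the fit. The shared signalling chain Fcer1g was at 222, 184 and 229 RPKM and 263, 241 and 190.1 RPKM and was not called. Of 10 NADPH oxidase genes 5 were called lower and 1 higher, or 3 lower without macrophage pool V or VII, 3 lower and 3 higher with quantile normalization and 3 and 2 with library sizes as summed reads. Cybb, the catalytic chain, stood at 211, 249 and 219.7 RPKM and 319, 246 and 283 RPKM and was not called. Hvcn1, a proton channel with 44.2% of its exon bases under exons of the opposite strand, was the member called higher, at 32, 39.5 and 39.8 RPKM against 2.62, 4.73 and 3.34.

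In arginine metabolism Arg1, the cytosolic arginase, was abundant in both populations, at 1122, 862 and 524 RPKM in macrophages and 1408, 1377 and 1697 in monocytes. Every macrophage pool lay below every monocyte pool, but Arg1 was not called (log2 fold change -0.90, SE 0.57, limma adjusted p = 0.252). Arg2, the mitochondrial arginase with 28.1% of its exon bases under exons of the opposite strand, stood at 66.9, 49 and 25.5 RPKM and 337, 338 and 315 RPKM, a log2 fold change of -2.92 (SE 0.42, limma adjusted p = 1.74e-05). Nos2, the inducible nitric oxide synthase, stood at 6.63, 7.83 and 4.63 RPKM in macrophages and 76.2, 26 and 60.6 in monocytes, a call lost without monocyte pool I (limma adjusted p = 0.0529). Gatm, of creatine synthesis, was the 1 member of 13 called higher, at 74, 114 and 132 RPKM against 26, 18.9 and 31.1, and 4 were called lower, whereas 4 were higher and 3 lower with library sizes as summed reads and 3 and 3 with quantile normalization.

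Of 19 costimulatory and checkpoint genes 7 were called lower and 3 higher, with a median of −0.30 that turned positive with library sizes as summed reads. These were 36.8% lower, against 18.4% over all genes, and 15.8% higher, near the 13.6% of all genes. The counts were 4 lower and 7 higher with summed reads and 6 and 6 with quantile normalization, so their balance depends on the scaling. Cd80, a ligand of Cd28 and Ctla4, stood at 27.7, 20.6 and 15.1 RPKM in macrophages and 110.5, 138 and 108 in monocytes, a log2 fold change of -2.53 (SE 0.22, limma adjusted p = 3.13e-08). Havcr2, the checkpoint receptor Tim-3, stood at 52.1, 49.6 and 46.9 RPKM and 251, 221 and 239 RPKM, a log2 fold change of -2.26 (SE 0.14, limma adjusted p = 3.87e-10). Cd274, the ligand PD-L1, with 14.1% of its exon bases under exons of the opposite strand, stood at 104, 55.5 and 54.2 RPKM in macrophages and 299, 223 and 229 in monocytes. Each fell by more than the spread between pools. Without macrophage pool V or VII, 4 of the list were called lower, and without either of these or monocyte pool I, 1 was called higher. The calls of Tnfsf4 and Cd200r1 were lost without macrophage pool V (limma adjusted p = 0.181 and 0.0633), macrophage pool VII (0.0615 and 0.0783) or monocyte pool I (0.19 and 0.081), and that of Tnfsf4 also without monocyte pool II (0.186) and that of Cd200r1 without macrophage pool I (0.081) or monocyte pool V (0.105). Both calls were also lost with libraries centred on their median (0.0515 and 0.0895), with voom (0.0571 and 0.0633) and with only the tumour libraries in the fit (0.129 and 0.0645).

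Further genes with the largest rises belonged to none of these lists or to a marker list. Cd4, the T cell co-receptor that some gut macrophages carry, stood at 27.4, 22.6 and 15.8 RPKM in macrophages with 0, 0 and 22 reads in monocytes. The T cell receptor complex chain Cd3e stood at 0.373, 0.357 and 1.28 RPKM in macrophages, Trbc1 at 0.565, 0.317 and 3.30 and Lck at 0.234, 0.386 and 2.68. The part of T cells in Cd4 was not tested. Plxdc2, a plexin domain protein, stood at 12.8, 12.2 and 8.17 RPKM with 0, 6 and 0 reads in monocytes. Tmem26, a membrane protein, stood at 14.3, 13.9 and 6.52 RPKM, at least 545-fold higher than in monocytes, which had 2, 2 and 2 reads. Cadm1, a cell adhesion molecule, stood at 13.8, 13.9 and 17 RPKM in macrophages and 0.0216, 0.0301 and 0.000915 in monocytes. Col14a1, a collagen, stood at 10.4, 15.1 and 10.7 RPKM with 0, 2 and 32 reads in monocytes. The sum of 12 fibroblast markers was 2.52 to 3.95 RPKM in macrophages and 6.25 to 8.19 in monocytes, where it was mostly Acta2, at 5.29, 4.34 and 3.93. The markers went both ways, with 2 of 10 tested called higher in macrophages and 1 lower. Col3a1, another collagen, had 28, 8 and 62 reads in macrophages and 0, 0 and 0 in monocytes. The part of fibroblasts in Col14a1 was not tested. Ms4a14 stood at 14.1, 14.5 and 24.9 RPKM in macrophages and 0.0268, 0.00218 and 0.259 in monocytes.

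These differences were set against those of the same pair of populations from LP, which shares no library with the tumour pair. Tumour and LP also differ in Apc genotype and in cell isolation, and may differ in DSS dose. By the methods, LP cells had an EDTA step and a longer collagenase digestion, tumour cells had DNase added, and the Percoll gradients differed. Tissue, genotype, dose and isolation go together here, so their parts in a difference cannot be told apart and were not tested. The difference of differences, tumour minus LP, was positive for 517 genes (4.01%) and negative for 678 (5.26%), and for the remaining genes tested the tumour difference was not shown to differ from that of LP. The positive genes were 338 without tumour macrophage pool V, 977 with log2(RPKM + 1), 842 with library weights and 838 with limma voom on the recovered reads. The share of positive calls was 43.3% as deposited, 29.3% with libraries centred on their median and 57.9% with library sizes as summed reads. C1qa, for one, had a log2 fold change of 7.79 in tumour and 7.96 in LP, and its difference was not called. Markers of other cells were present in the LP libraries too: the sum of 11 B and plasma cell markers was 120 to 1796 RPKM in LP MHCIIlow macrophages and 1458 to 5558 in LP monocytes, and that of 12 fibroblast markers 27.8 to 83.1 and 23.8 to 42.9. The sum of 14 epithelial markers was 28.3 to 43.3 in LP macrophages and 26.2 to 227 in LP monocytes. The part of these cells in the differences between tumour and LP was not tested. Where a library of a group holds no read, the fitted size of a difference depends on the prior count. Only its direction and adjusted p are given in this part, and the fitted sizes are listed with the flagged results.

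**Figure D4:**
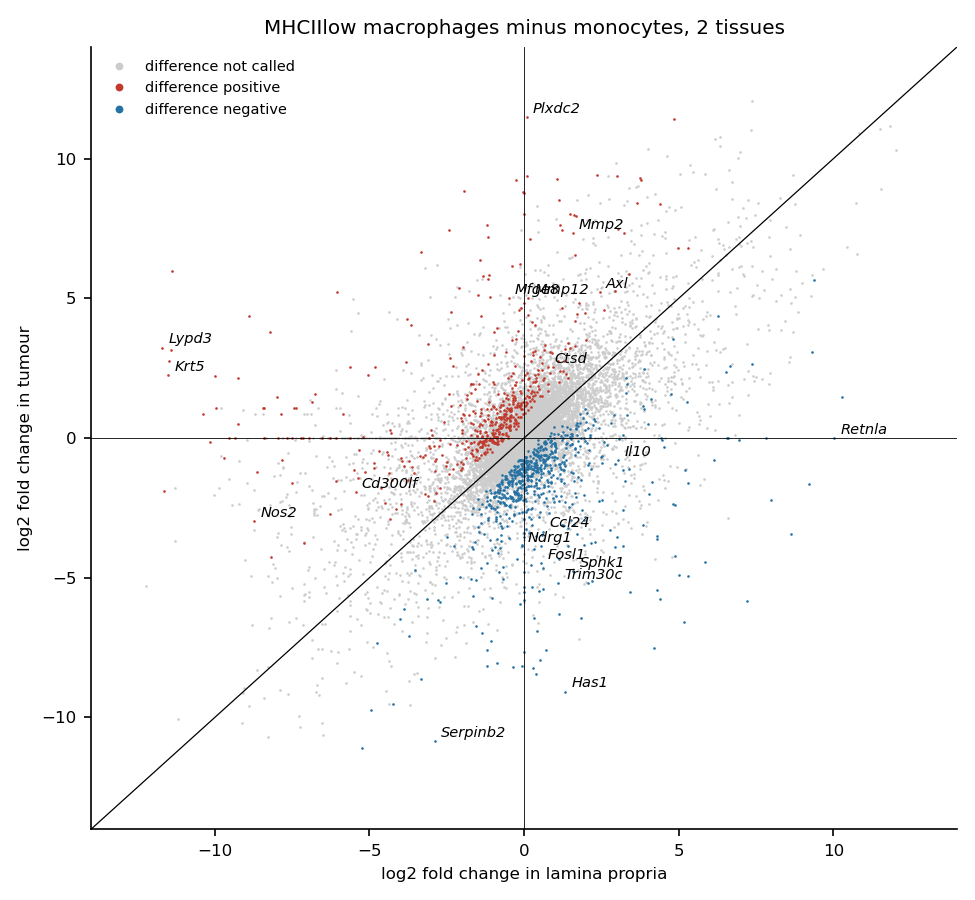
Log2 fold changes, MHCIIlow macrophages minus monocytes, in LP (horizontal axis) and in tumours (vertical axis) for 12878 genes, with the line of equal values. Genes with a called difference are coloured, 517 above the line and 678 below it, and Mmp2, Mfge8 and Mmp12 lie above while Has1, Serpinb2 and Trim30c lie below.

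Of 20 metalloproteinases and inhibitors 6 had a positive and 2 a negative difference, and of 20 genes of apoptotic-cell clearance 2 and 2, with a median difference of −0.50 for the latter. Mmp2 stood at 1.98, 11.7 and 6.5 RPKM in LP MHCIIlow macrophages of pools II, III and IV and at 2.04, 1.21 and 2.33 in LP monocytes of pools III, IV and V, a log2 fold change of 1.57 against 7.35 in tumour (difference 5.78, SE 0.69, limma adjusted p = 2.86e-05). Mmp12 stood at 2.32, 19.4 and 17.7 RPKM and 9.02, 9.7 and 6.94 RPKM in LP (difference 4.87, SE 0.77, limma adjusted p = 0.000336). Mfge8 stood at 10.0, 15.7 and 5.8 RPKM in LP macrophages and 33.1, 7.03 and 11.2 in LP monocytes (difference 5.51, SE 0.73, limma adjusted p = 7.01e-05). In LP the groups of Mmp2, Mmp12 and Mfge8 overlapped, while in tumour they did not. Axl stood at 22, 60.8 and 47 RPKM and 7.79, 5.04 and 9.88 RPKM in LP (difference 2.79, SE 0.54, limma adjusted p = 0.00228). Tnfsf13b stood at 2.26, 2.6 and 1.16 RPKM in LP macrophages and 0.565, 1.11 and 0.305 in LP monocytes (difference 2.72, SE 0.55, limma adjusted p = 0.00303). Gpnmb stood at 108, 141 and 181 RPKM and 34.7, 48.1 and 28.3 RPKM in LP, above its tumour levels in each population, and the gap was smaller in LP (difference 2.52, SE 0.52, limma adjusted p = 0.00353). The proteases Ctsd, Lgmn and Ctsz had positive differences of 1.76 (SE 0.24, limma adjusted p = 0.000104), 1.43 (SE 0.22, limma adjusted p = 0.000247) and 1.32 (SE 0.29, limma adjusted p = 0.00551) respectively. For Lgmn the LP monocytes, at 735, 937 and 834 RPKM, already held more than the tumour monocytes, and LP macrophages held 1079, 1194 and 1143. Against 4.01% positive and 5.26% negative over all genes, 9 of 45 lysosomal genes had a positive and 2 a negative difference, and of 81 cell cycle genes 11 and 0, with a median log2 fold change of 0.37 in LP for the latter.

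A positive difference also arose where a transcript was lower in macrophages by more in LP than in tumour. Nos2 stood at 0.0481, 0.0464 and 1.31 RPKM in LP macrophages and 73.9, 68.6 and 44.9 in LP monocytes, a log2 fold change of -8.74 against -2.99 in tumour (difference 5.75, SE 1.23, limma adjusted p = 0.00476). Slc16a3 stood at 6.29, 10.5 and 8.33 RPKM and 165, 216 and 184 RPKM in LP (difference 2.19, SE 0.26, limma adjusted p = 2.32e-05), and Cd300lf at 0.966, 3.51 and 0.869 and 65.9, 80.6 and 46.4 (difference 3.52, SE 0.51, limma adjusted p = 0.000162). Plxdc2 was low in LP, at 0.0464, 1.33 and 2.02 RPKM in macrophages and 0.562, 0.308 and 0.603 in monocytes (difference positive, limma adjusted p = 0.00364). Among the largest fitted positive differences, those of Lypd3 (limma adjusted p = 0.00181), Krt5 (limma adjusted p = 0.0126), Aqp3 (limma adjusted p = 0.0472) and Cyp2f2 (limma adjusted p = 0.041) were in transcripts best known from epithelia, with at most 34 reads in any of the 6 tumour libraries. They were unequal among the LP monocytes, with Krt5 at 582, 0.605 and 102 RPKM in LP monocyte pools III, IV and V, Lypd3 at 40.4, 1.22 and 123 and Aqp3 at 91.2, 0.452 and 92.7. All 4 calls were lost with voom (adjusted p = 0.251 for Lypd3, 0.576 for Krt5, 0.546 for Aqp3 and 0.369 for Cyp2f2), and those of Aqp3 and Cyp2f2 also with the pool number as a block (0.163 and 0.143), with no filter, with only the libraries compared in the fit and without any 1 of 10 of the 12 libraries compared. The exceptions were tumour macrophage pool I and LP monocyte pool IV for Aqp3, with adjusted p values of 0.0637 to 0.128, and pool IV of LP macrophages and of LP monocytes for Cyp2f2, with 0.053 to 0.0999. ENSMUSG00000094749.1 had no read in the 6 tumour libraries and stood at 13.5, 11.1 and 9.09 RPKM in LP monocytes (difference positive, limma adjusted p = 0.0227), a call lost without LP macrophage pool II (0.0548) or IV (0.0527) and with the pool number as a block (0.164).

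Among the negative differences were genes called lower in tumour macrophages than in tumour monocytes whose log2 fold changes in LP were nearer 0 or positive. Serpinb2 stood at 8.93, 3.84 and 13 RPKM in LP macrophages and 41.5, 35.8 and 124 in LP monocytes (difference negative, limma adjusted p = 0.0135). Has1 stood at 16.7, 18.4 and 12.8 RPKM and 8.45, 3.06 and 9.61 RPKM in LP (difference negative, limma adjusted p = 0.000445). Sphk1, a sphingosine kinase, stood at 0.846, 0.376 and 0.548 RPKM in tumour macrophages and 12.7, 15.2 and 18 in tumour monocytes, against 44.8, 29.2 and 30.7 and 9.12, 13.2 and 12.3 in LP (difference -6.35, SE 1.28, limma adjusted p = 0.00293). The log2 fold changes of Has1 and Sphk1 thus had opposite signs in the tissues. Trim30c stood at 0.787, 0.243 and 0.608 RPKM and 20.6, 17.3 and 16.1 RPKM in tumour and 105, 42.4 and 59.4 and 29.8, 26.7 and 34.5 in LP (difference -6.29, SE 0.49, limma adjusted p = 7.19e-07). Fosl1 stood at 101, 40.7 and 44.7 RPKM in LP macrophages and 45.6, 36.4 and 36 in LP monocytes (difference -5.01, SE 0.78, limma adjusted p = 0.000292), and 8 of 25 immediate-early genes had a negative difference, against 5.26% of all genes, and 0 a positive one. Ier3 (-2.60, SE 0.50, limma adjusted p = 0.0019) was among them. The part of digestion time in these was not tested. Negative differences were also more frequent than positive ones in 2 other lists. Of 54 myeloid transcription factors 11 were negative and 1 positive, and of 44 interferon-stimulated genes 8 and 1.

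Il10 had opposite signs as well. It stood at 236, 79.5 and 101 RPKM in LP macrophages and 12.4, 17.6 and 15.3 in LP monocytes, a log2 fold change of 3.05 against -0.79 in tumour (difference -3.84, SE 0.56, limma adjusted p = 0.000162). Tumour monocytes, at 37.8, 36.4 and 38.1 RPKM, held more Il10 than LP monocytes did, and tumour macrophages, at 34.7, 18.5 and 15.6, less than LP macrophages, comparisons that were not tested. Retnla, the resistin-like molecule alpha, had no read in any of the 6 tumour libraries or in LP monocytes and stood at 8.0, 22.5 and 20.6 RPKM in LP macrophages (difference negative, limma adjusted p = 2.95e-05). Hmox1, haem oxygenase 1, stood at 1195, 1100.4 and 538 RPKM and 1229, 1196 and 1729 RPKM in tumour and 1238, 1219 and 997 and 423, 594 and 397 in LP (difference -1.92, SE 0.49, limma adjusted p = 0.0155). Ccl24 stood at 66.5, 57.2 and 53.3 RPKM in LP macrophages and 17.3, 50.8 and 62.9 in LP monocytes (difference -3.97, SE 0.98, limma adjusted p = 0.013), and Ccl9 at 389.7, 200.1 and 279 and 150.2, 230.2 and 220.4 (difference -1.61, SE 0.34, limma adjusted p = 0.00391). C4b stood at 31.9, 23.8 and 21.8 RPKM and 2.4, 3.58 and 2.52 RPKM in LP (difference -5.76, SE 0.91, limma adjusted p = 0.000334). Ndrg1 (-3.80, SE 0.55, limma adjusted p = 0.00016), Anxa2 (-2.41, SE 0.32, limma adjusted p = 8.99e-05) and Cd44 (-2.02, SE 0.28, limma adjusted p = 0.000117) had negative differences as well, with Ndrg1 at 57.8, 30.4 and 32.3 RPKM and Anxa2 at 476, 292 and 339 in LP macrophages. Isg20 (-2.94, SE 0.49, limma adjusted p = 0.000637) and Tcim (-6.03, SE 1.67, limma adjusted p = 0.027) were negative too. Tcim stood at 2.03, 0.144 and 0.46 RPKM and 2.15, 3.96 and 1.01 RPKM in tumour, with overlap, and at 8.51, 11 and 13.3 and 1.7, 0.206 and 0.812 in LP, and its difference was lost without any 1 of 6 libraries: LP macrophage or monocyte pool IV, tumour macrophage pool V or VII and tumour monocyte pool I or II, with adjusted p values of 0.0522 to 0.0817.

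MHCIIhi macrophages of the same tumours, compared with the same 3 monocyte libraries, give a second view of these genes, and since the monocytes are shared the values are only set side by side. The core macrophage genes had a median log2 fold change of 2.74 in MHCIIhi and 2.56 in MHCIIlow macrophages, the classical monocyte genes −4.82 and −4.87, and the MHC class II genes 3.86 and 1.99. C1qa stood at 1797, 1194 and 1172 RPKM in MHCIIhi pools I, V and VII and at 1587, 1673 and 1215 in MHCIIlow pools of the same numbers. H2-Ab1 stood at 9517, 6119 and 3960.2 RPKM in MHCIIhi and 2118, 1411 and 359 in MHCIIlow macrophages, with pool VII lowest in each population. Marco stood at 0.573, 1.32 and 1.65 RPKM in MHCIIhi and 14.1, 15.4 and 17.3 in MHCIIlow macrophages. Arg1 stood at 92.4, 135 and 64.5 RPKM in MHCIIhi and 1122, 862 and 524 in MHCIIlow macrophages, below the monocytes in both. Mmp9 (135, 187 and 101 RPKM against 645, 468 and 205), Gpnmb (25.4, 10.3 and 12 against 59.2, 57.3 and 36) and Anxa2 (23.2, 30.1 and 13.2 against 83.1, 100.1 and 69.1) also lay without overlap between the subsets, in the order MHCIIlow over MHCIIhi, and these differences were not tested.

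**Figure D5:**
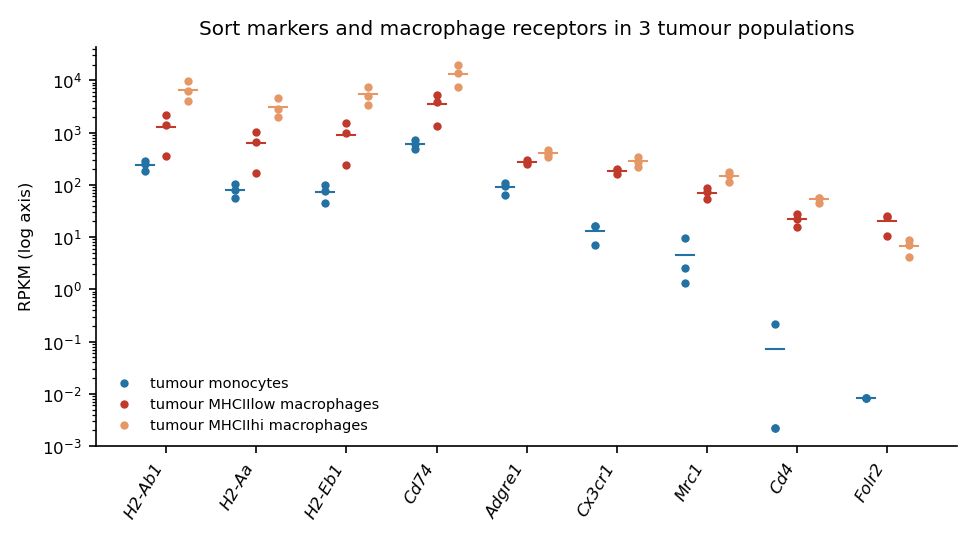
RPKM on a log axis for sort marker genes and macrophage receptors in tumour monocytes (blue), MHCIIlow macrophages (red) and MHCIIhi macrophages (orange). Each point is 1 library and each bar the mean of 3, H2-Ab1 of MHCIIlow macrophages runs from 359 to 2118 RPKM, and a gene without reads stands at the small value set by the prior count, as Folr2 does in monocytes.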

How the data were processed

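Libraries were made from 2 ng RNA of sorted cells (SMARTSeq v2, modified), with RNA integrity numbers of 6.5 to 10, and sequenced as paired 51-base reads. The authors aligned reads with STAR 2.3 to the mouse genome GRCm38 (mm10), counted them per gene with featureCounts 1.5 and removed genes under a mean of 10 reads, and the deposited values are log2 RPKM as edgeR computes them. Whether counting used strand is not given in the sources used here.

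From the deposited log2 RPKM of 17301 genes, whole reads were recovered with a prior count of 0.25 scaled to library size: 100% of 415224 values were whole within 0.0005 reads. Genes with a mean of at least 1 RPKM in at least 1 of 8 groups (12878) were fitted with limma 3.58.1 in R 4.3.3 on the log2 values, with 8 group means over 24 libraries and a trend in the variance, which is not the voom fit of the study's methods, and p values were Benjamini-Hochberg adjusted over all genes tested. A call needs an adjusted p under 0.05. The code was tested on simulated data. Python 3.11.15 with pandas 2.3.3, numpy 2.4.6 and matplotlib 3.10.9 made tables and figures, and gene positions came from GENCODE M21, with 111 genes unmatched. A gene without reads in a group was bounded with 3 reads per library.

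Genes were named by rule: the 12 largest rises and 12 largest falls among called genes with separate groups and a mean of at least 10 RPKM in the higher group, without predicted genes, pseudogenes and receptor segments; in each list that is no cell type marker list, the 2 largest called changes in each direction and the 2 most abundant members; genes fixed for their textbook roles; the 6 largest differences in each direction between tumour and LP; and list members in counts of 5 or fewer. Some genes that the rule names are not reported here. The members and lists were chosen with earlier results of these data known. The labels call the pool number a donor, which pairs libraries of the same tissue. Over 29 pairs of the same number and tissue, deviations from group means correlated at −0.066 to 0.255 (median 0.017), and in the tumour comparison at −0.044 for number I and 0.0003 for number V. Within a population the pools have separate numbers, while numbers I and V occur in both populations compared, and the main fit does not pair them. The p values rest on a spread between pools estimated over all 8 groups and 24 libraries, not on the 6 libraries compared alone. Alternatives covered filters, pseudocounts, scaling, libraries in the fit, weights, the block, voom and leaving out each library.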

Additional observations from a re-analysis of the deposited data

Results flagged for a closer look

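For 35 named genes the log2 fold change between MHCIIlow macrophages and monocytes differed between tumour and LP by the limma test of the difference itself, tumour minus LP, with Benjamini-Hochberg adjustment over all genes tested. These genes were picked for the text after their differences were seen. On the log2 scale the difference was positive for Plxdc2 (11.42), Mmp2 (5.78), Nos2 (5.75), Mfge8 (5.51), Mmp12 (4.87), Cd300lf (3.52), Axl (2.79), Tnfsf13b (2.72), Gpnmb (2.52), Slc16a3 (2.19), Ctsd (1.76), Lgmn (1.43) and Ctsz (1.32), and it was positive for Lypd3 (14.95), Krt5 (13.76), Aqp3 (9.76), Cyp2f2 (8.47) and ENSMUSG00000094749.1 (7.95), which had few or no reads in the tumour libraries and reads in LP monocytes. It was negative for Has1 (-10.40), Retnla (-10.03), Serpinb2 (-7.95), Sphk1 (-6.35), Trim30c (-6.29), Tcim (-6.03), C4b (-5.76), Fosl1 (-5.01), Ccl24 (-3.97), Il10 (-3.84), Ndrg1 (-3.80), Isg20 (-2.94), Ier3 (-2.60), Anxa2 (-2.41), Cd44 (-2.02), Hmox1 (-1.92) and Ccl9 (-1.61). Where libraries of a group hold no read the size of the difference depends on the prior count, as for Has1, Retnla, Serpinb2, Plxdc2 and the genes with few tumour reads. Of 61 named genes with a called difference, 31 were called under every alternative tried, 21 were lost when 1 library was left out and 11 with the pool number as a block. The calls of Lypd3, Krt5, Aqp3 and Cyp2f2 were lost with limma voom on the recovered reads, those of Aqp3, Cyp2f2 and ENSMUSG00000094749.1 with the pool number as a block, and those of Aqp3, Cyp2f2, Tcim and ENSMUSG00000094749.1 without single libraries. No explanation of these differences was tested.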

How the results depend on the processing

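Across 19 alternatives no named gene changed the sign of a called difference. Of 157 named genes called, 131 were called in all of them, 26 lost the call in at least 1 and 17 when 1 library was left out, and of 29 not called 14 were called in at least 1. The count of genes higher in macrophages, 1745, was 3142 with library sizes as summed reads, 2693 with log2(RPKM + 1) and 2686 with limma voom on the recovered reads, and the count of lower genes, 2370, was 1427 with summed reads. The count of positive differences between tumour and LP, 517, was 842 with weights for each library, 977 with log2(RPKM + 1), 838 with voom and 338 without macrophage pool V. Leaving out 1 library at a time gave 1319 to 1487 higher and 1975 to 2215 lower genes, and 338 to 553 positive and 529 to 715 negative differences. For all of these the cause was not tested. Pairing by the pool number, with tissue and number as a fixed replicate block, gave 1563 higher and 2103 lower genes and 345 positive and 458 negative differences, and as a random block 1801, 2404, 549 and 701. The fixed block ended the calls of Nfe2, Tgfb3, Ldha, Pimreg, Ereg, Fth1 and Duox2 and added those of Cd68, Klf2, Vegfa and Tubb4b.

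With 3 pools a group, small changes cannot be seen, and the pools of mice give no measure of the spread between single animals. Genes with few or no reads in 1 group have fitted sizes that depend on the prior count of 0.25. Reads of genes with shared stretches, and of genes that overlap on opposite strands, cannot be assigned with certainty from the deposited values.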
